A study of Mus musculus with 18 samples.

Results

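The subject is the output of exonic circular RNAs (ecircRNAs) by their host genes in XPO4 knock-out (KO) NIH/3T3 cells, set against the mRNA level of the same hosts. A gene was a KO host when at least 1 circle in a KO whole-cell library began and ended on exon edges of that gene and of no other gene. By this rule 3828 of the 55401 genes in the mRNA tables were KO hosts, against 3837 hosts in wild-type (WT) whole-cell libraries and 3865 in either. Of 10488 KO circles, 10394 had 1 host, 71 fitted several genes and 23 fitted none, so the hosts held 99.1% of the junction reads of each KO library.

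NIH/3T3 is a mouse embryonic fibroblast line. The KO cells carry a CRISPR-Cas9 frameshift deletion in the gene of XPO4, a nuclear export receptor, and the sources used here do not say whether the line came from 1 cell. No other treatment or agent was given to either genotype. The study sequenced circRNAs of whole cells, cytoplasm and nuclei after digestion of linear RNA with RNase R, and mRNA of whole cells. Of its 18 libraries, 14 were used here, namely 2 whole-cell, 2 cytoplasmic and 2 nuclear circRNA libraries and 3 mRNA libraries of KO cells, and 2 whole-cell circRNA and 3 mRNA libraries of WT cells.

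A circRNA forms when a downstream splice donor is joined to an upstream splice acceptor of the same transcript, a step called backsplicing that competes with the linear splicing of the exons involved. The process is favoured by long introns on both sides of the circle and by inverted repeats that bring the introns together. Circles have no free ends and resist exonucleases, so they are long-lived and can accumulate from genes with little mRNA.

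The KO whole-cell libraries held 58165 and 50341 junction reads, that is, reads across the backsplice, and the WT libraries held 57780 and 55109. The KO mRNA libraries held 16974062 to 17922696 counted fragments and the WT ones 19529104 to 22057323. mRNA level is given as FPKM, fragments per kilobase of exon scaled to the counted fragments of the library, and circle reads are given as counted. Circle reads came from RNase R digests and FPKM from mRNA libraries, so their ratio ranks genes and is not a ratio of molecules. No source says that circle fragments were kept out of the mRNA libraries, where they would count to the host.

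Several features of the libraries bear on these values. The column headings of the mRNA tables name the opposite genotype from the sample titles, which set the groups here. Xpo4 mRNA, at 3.72, 2.62 and 3.77 FPKM in the libraries labelled KO and 3.08, 2.93 and 2.89 FPKM in those labelled WT, did not tell the labels apart, and a short deletion need not lower it. The Y-linked genes Ddx3y (5.88 ± 0.496 FPKM, SD, n = 3), Eif2s3y (4.24 ± 0.215), Uty (0.687 ± 0.105) and Kdm5d (0.547 ± 0.0405) were present in the KO mRNA libraries and at 0 in all 3 WT mRNA libraries, yet Uty circles had 10 and 12 reads in the WT circRNA libraries beside 19 and 24 in the KO ones. In all, 7 KO hosts had at least 10 fragments in each KO mRNA library and 0 in every WT one, whereas 0 hosts showed the reverse. All 7 had circle reads in WT cells, as did 99.3% of all KO hosts, though Sobp, Trhde and Hecw1 had at most 1 in each WT library. The 7 were picked out after their values were seen.

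KO replicate 1 stood above replicate 2 for 55 of the 60 circles with at least 50 mean reads, with a median log2 ratio of 1.24. In WT, replicate 1 was the higher for 66 of 80 such circles, with a smaller median log2 ratio of 0.23. Among the 2967 KO circles with 5 to under 10 reads the median log2 ratio was -0.21, so the KO libraries differed in composition and not in depth alone. The circle tables also follow a listing rule: each of the 10700 whole-cell circles had at least 2 reads in both libraries of at least 1 genotype. A gene without circles is therefore a gene with no circle listed, and weak circles can be missed. The fibroblast label held, since all 10 fibroblast markers were at 38.7 to 854 FPKM, summed to 3073 to 3166 FPKM a library. No epithelial, endothelial, muscle or pluripotency marker passed 0.252 FPKM, and the highest blood and neuronal markers were Cd68 at 2.90 and Snap25 at 1.35 FPKM.

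Backsplice junctions of hosts that the results turn on are shown with 15 bases on each side, read 5′ to 3′ on the strand of the gene from the RefSeq GRCm38 genome, the build of the files (mm10). Lower case is the end of the circle's last exon and capitals are the start of its first exon, which follow each other only in the circle. They are the main circles of hosts of high output for their mRNA (Pakap, Rasa2, Pvt1, Cacna1c and Kat6b) and of 3 hosts with many reads and more mRNA (Nfix, Tulp4 and Hipk3). Those of Pakap, Pvt1, Kat6b, Nfix and Hipk3 are 1 whole exon each.
Pakap, chr4:57709451-57710143, + strand: cagacccggccccagCTATATACGCCATGG
Rasa2, chr9:96591950-96611499, - strand: gcagcttgttgtacaATGAAGCAAAAAATT
Pvt1, chr15:62107148-62107465, + strand: agctccctctaaaatGTCTGATTTTCTTAA
Cacna1c, chr6:119052601-119057515, - strand: accaactccaacctgGTTCCAACTATGGGA
Kat6b, chr14:21516626-21517498, + strand: catgagaaagaccagGTCTTGGTTTCCTAA
Nfix, chr8:84771784-84772315, - strand: ttgtccacactccggGATGAGTTCCACCCG
Tulp4, chr17:6137211-6139156, + strand: ggccacaacagtgagAGTTGTAAGAGTCCA
Hipk3, chr2:104470749-104471847, - strand: atctcgctactacagGTATGGCCTCACAAG

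All 10394 KO circles with 1 host had AG just before their first exon and GT just after their last exon, the usual intron ends. The 10248 circles that could be placed on an annotated transcript held a median of 4 exons and 521 spliced nt (quartiles 363 and 807). Single-exon circles made up 4.34%, and 31 circles held exon 1 and 3 the last exon. Circles that began at exon 2 made up 29.9% of the circles and carried 38.9% of the reads. Among the 234 circles with at least 20 mean reads, 124 (53.0%) began at exon 2.

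Across the 3828 KO hosts as a whole, circle reads did not rank with mRNA level. Median reads of protein-coding hosts were 2.0 under 0.1 FPKM (35 hosts), 7.5 at 1 to 5 FPKM (984 hosts) and 3.0 at 500 FPKM or more (3 hosts). Genes without a listed circle do not enter these values. Spearman's rho between mean circle reads and mean FPKM was -0.00061 (n = 3828 genes, which are not independent replicates), and it was 0.0046 with circRNA library 1 alone and -0.0083 with library 2 alone. Over the 710 hosts with at least 20 mean reads it was -0.0525, and it was 0.041 over the 3837 WT hosts. The points share the same 5 libraries and a listing rule, and FPKM is divided by exon length, whereas circle reads are not. The circle reads of both KO libraries ranked the hosts with rho 0.897, and the mRNA libraries with rho 0.993 to 0.998. The part of the listing rule in the agreement of the circle libraries was not tested. The squared difference of both counts over their sum is about 1 for counting error alone where no counts are left out. It had a mean of 0.494 over 3743 KO circles with 2 to under 5 mean reads and of 33.2 over the 60 with at least 50. The listing rule can leave out uneven pairs of weak counts, so the 0.494 cannot be set against 1.

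Circle reads per host had a median of 6.5 (quartiles 3.5 and 15.5) and reached 691.5, and FPKM had a median of 8.40 (quartiles 3.97 and 17.0) and reached 1004. The 10 hosts with the most reads gave 6.72% of all circle reads with 0.0724% of the summed FPKM of all genes, and the top 100 hosts gave 23.7% of the reads with 0.466%. In contrast, the 100 genes with the highest FPKM held 26.2% of the summed FPKM and 0.0744% of the circle reads. Among the measures compared with reads, rho was highest for the number of circles (0.808), followed by the genomic span of the gene (0.408) and its number of exon blocks (0.257). A host had up to 23 circles with a median of 2, and 1711 hosts had 1 circle.

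**Figure D1:**
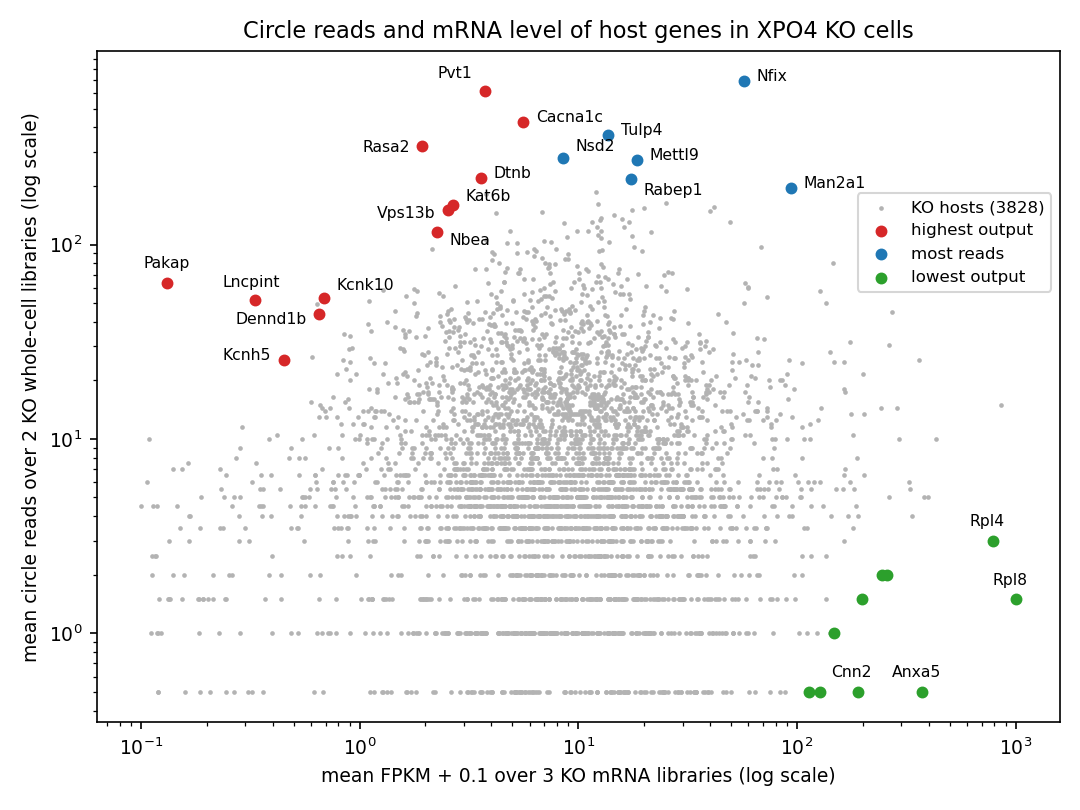
Mean circle reads of each KO host (y axis, 2 libraries, log scale) against its mean FPKM + 0.1 (x axis, 3 libraries, log scale). Grey points are all 3828 hosts, red points the 12 of highest output, blue points the others of the 10 with the most reads and green points the 10 of lowest output. The cloud as a whole has no rank trend (rho -0.00061), and Pakap stands toward the left edge and Rpl8 at the far right.

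The circle output of a host was taken as (mean reads + 1) divided by (mean FPKM + 0.1). It had a median of 1.06 (quartiles 0.372 and 3.10), a log2 median of 0.09, and a highest value of 491. Since FPKM is its denominator, output fell with FPKM (rho -0.754), which is arithmetic and not a finding. The 12 hosts of highest output among the 575 with at least 20 reads in each KO library were chosen by these values, so their levels are descriptions without a test. They were Pakap, Rasa2, Pvt1, Lncpint, Kcnk10, Cacna1c, Dennd1b, Dtnb, Kat6b, Vps13b, Kcnh5 and Nbea. Of them, 2 were non-coding and 5 were under 1 FPKM. The main circle began at exon 2 in 7, and 11 also had at least 20 mean reads in WT cells.

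Pakap, annotated for readthrough transcripts that join a paralemmin and a kinase anchoring gene, had 56 and 71 circle reads in the KO libraries. Its mRNA was 0.0265, 0.0396 and 0.0279 FPKM, which rests on 4, 6 and 4 fragments. Its output of 491 is uncertain, because 98.2% of its exon length is shared with other annotated genes, and the counting as run leaves out fragments that fit several genes. The main Pakap circle is 1 exon of 693 nt and gave 93.7% of the reads.

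Rasa2, a GTPase-activating protein of Ras, had 460 and 185 circle reads, with 1.90, 1.67 and 1.93 FPKM. Replicate 1 was well above replicate 2 while the mRNA libraries lay close together, and the output was 167 (WT output 183, from 457 and 383 reads). Its main circle joins exons 2 to 5 and gave 65.6% of the reads. None of its exon length is shared with another gene.

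Pvt1, a long non-coding RNA gene next to Myc, had 615 and 622 circle reads in KO cells and 49 and 50 in WT cells, and the genotypes did not overlap. Its mRNA was 3.56, 3.53 and 3.80 FPKM in KO cells, below the 5.74 ± 0.532 FPKM (SD, n = 3) of WT cells, so output was 166 in KO and 8.65 in WT. The difference lay in 1 circle, exon 2 alone, of 318 nt between introns of 68.9 and 41.8 kb, with 566 and 569 KO reads against 1 and 2 WT reads. KO cytoplasmic libraries held 436 and 1282 reads of it and the nuclear ones 10 and 28.

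Lncpint, a non-coding RNA gene induced by p53, had 63 and 41 circle reads for 0.233 ± 0.0692 FPKM (SD, n = 3), an output of 159. Its reads were spread over 7 circles, the largest with 27.9%, and WT cells had 43 and 40 reads. Cacna1c, the pore subunit of an L-type calcium channel, had 424 and 434 circle reads for 5.57, 4.74 and 6.18 FPKM, an output of 76.9. WT cells had fewer circle reads, 240 and 245, and more mRNA, 9.02 ± 0.565 FPKM, with no overlap in either readout. A circle of exons 2 and 3, of 428 nt between introns of 138.6 and 272.3 kb, gave 394 reads in each KO library and 209 and 212 in WT.

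The potassium channel genes Kcnk10 (32 and 74 reads, 0.586 ± 0.135 FPKM) and Kcnh5 (23 and 28 reads, 0.351 ± 0.0571 FPKM) had outputs of 78.7 and 58.8. Kcnk10 had 14 and 12 reads in WT cells, below both KO values, whereas the 24 and 21 WT reads of Kcnh5 overlapped the KO values. Dennd1b, an exchange factor for Rab GTPases, had 52 and 36 reads for 0.555 ± 0.0564 FPKM, and WT reads of 60 and 40. Nbea, or neurobeachin, a protein of membrane traffic in neurons, had 138 and 93 reads over 22 circles for 2.16 ± 0.337 FPKM, with higher WT reads of 188 and 160.

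Dtnb encodes beta-dystrobrevin of the dystrophin complex, Kat6b a histone acetyltransferase and Vps13b a lipid transfer protein of the Golgi. Dtnb had 311 and 130 reads over 18 circles for 3.47 ± 0.215 FPKM. Kat6b had 228 and 90 reads for 2.58 ± 0.416 FPKM, of which exon 2 alone, 873 nt, gave 86.2%. Vps13b had 175 and 126 reads over 17 circles for 2.44 ± 0.442 FPKM. In each of these 3 hosts KO replicate 1 was the higher, and the WT reads (291 and 282, 213 and 177, 124 and 122) gave outputs of 73.9, 67.4 and 35.8 beside 62.0, 59.7 and 59.6 in KO cells.

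Many reads with more mRNA were found in Nfix, Tulp4, Nsd2, Mettl9, Rabep1 and Man2a1, which with Pvt1, Cacna1c, Rasa2 and Dtnb made up the 10 hosts with the most reads. Nfix, a transcription factor of the nuclear factor I family, led with 697 and 686 KO reads against 10 and 13 in WT cells, at 57.4, 52.7 and 61.7 FPKM in KO and 55.8 ± 1.83 FPKM (SD, n = 3) in WT. Its circle of exon 2 alone, 532 nt between introns of 1.04 and 43.8 kb, had 681 and 677 KO reads against 2 and 0 in WT, while the mRNA of the genotypes overlapped. The same circle had 682 and 685 reads in KO cytoplasm and 14 and 48 in KO nuclei.

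Tulp4, a tubby-like protein, had 529 and 202 reads over 16 circles for 13.6 ± 2.14 FPKM, and WT reads of 565 and 379. Nsd2, a histone methyltransferase, had 332 and 228 reads (WT 297 and 255) for 8.38 ± 0.467 FPKM, and Mettl9, a histidine methyltransferase, 354 and 192 (WT 315 and 228) for 18.4 ± 1.33 FPKM. Man2a1, a Golgi mannosidase, had the highest mRNA level of these, 94.0 ± 12.3 FPKM, with 262 and 127 reads spread over 17 circles, and an output of 2.08.

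**Figure D2:**
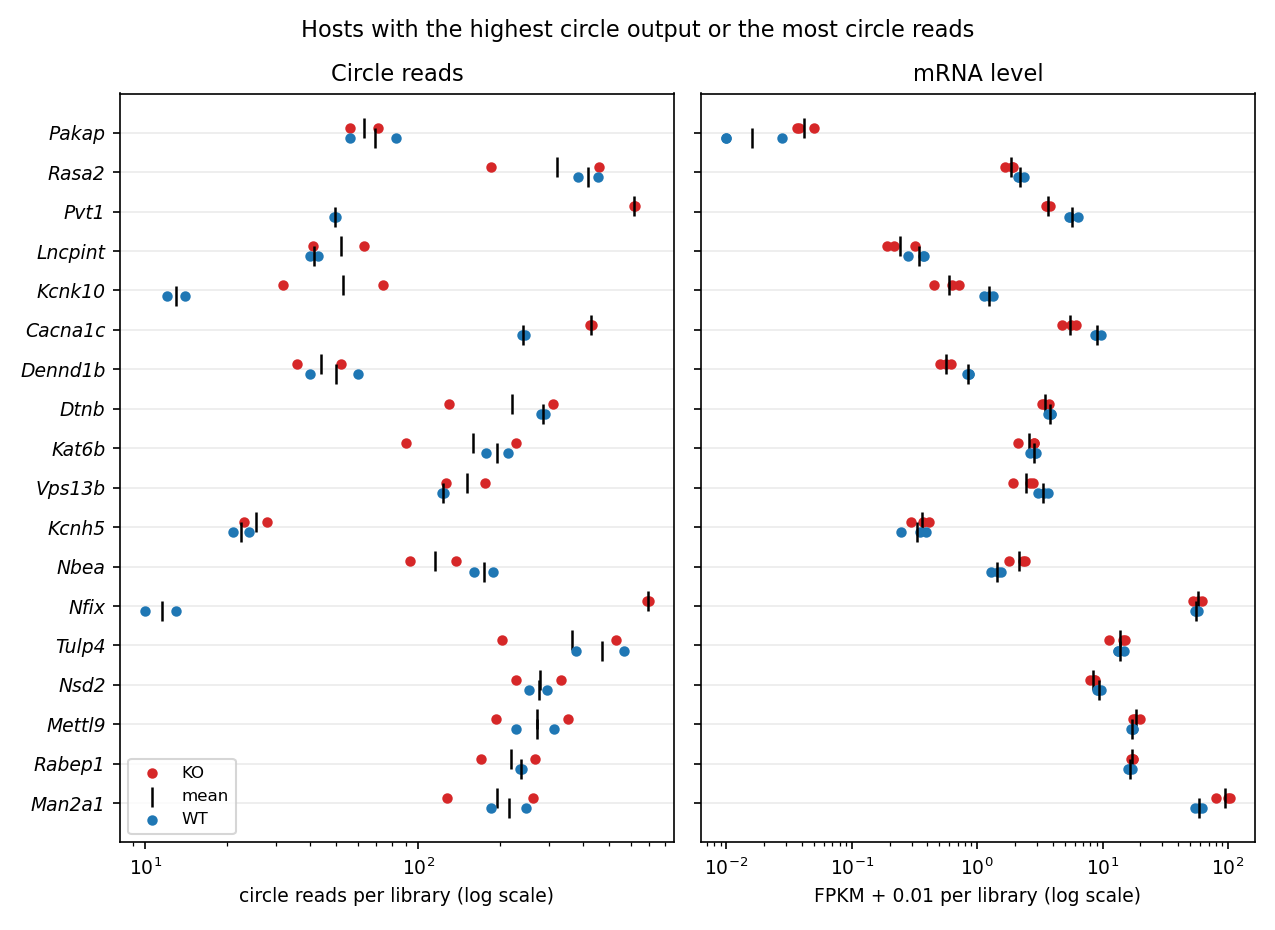
Circle reads in each whole-cell circRNA library (left, log scale) and FPKM + 0.01 in each mRNA library (right, log scale) for the 12 hosts of highest output and the 10 with the most reads, 18 hosts in all. Red points are KO libraries, blue points WT libraries and black ticks means. Nfix and Pvt1 show the widest gap between genotypes on the left, 697 and 686 against 10 and 13 reads for Nfix, while its mRNA points overlap between genotypes on the right.

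Hosts with at least 20 mean reads and under 1 FPKM numbered 18. They included Pakap, Lncpint, Kcnh5, Asxl3, Gm21992, Dennd1b, Kcnk10, Uty, Grik2, Adgrl3, Cdkal1, Ralgapa2, Rims2, Pms1, Kif6, Tsga10 and Ccdc171. The share with at least 20 reads was 8.11% among the 222 hosts under 1 FPKM and 18.5% among all hosts. Of the 18, 17 were protein-coding, 11 also had at least 20 mean reads in WT cells and 13 were also under 1 FPKM there, and 17 had reads in KO cytoplasm. Pakap and Gm21992 share 98.2% and 69.8% of their exon length with other genes, and Gm21992, with 85 and 14 reads, was the least even between libraries. In bulk RNA, a few cells with much of an mRNA cannot be told apart from all cells with little of it.

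Grik2, Adgrl3 and Rims2 are best known from neurons. Grik2, a kainate receptor subunit, had 25.5 mean reads for 0.736 ± 0.160 FPKM (SD, n = 3), and Adgrl3, an adhesion receptor, 34.5 mean reads over 11 circles for 0.753 ± 0.190 FPKM. Rims2, a scaffold of the presynaptic active zone, had 19 and 21 KO reads for 0.803 ± 0.0116 FPKM and 27 and 33 WT reads for 0.0807 ± 0.0214 FPKM, so its circle reads were lower and its mRNA higher in KO cells without overlap. The 3 neuronal markers had a median of 0.00695 FPKM, with Snap25 at 1.35 FPKM. At the edges of the rule, Ccdc171 with 39.0 reads and 0.996 FPKM and Rims2 with 20 reads lay just inside. The gene 2610307P16Rik with 51.0 reads and 1.00 FPKM, and Brwd3 with 18 reads and 0.998 FPKM, lay just outside.

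Expressed genes without circles made the opposite group. Of 4975 protein-coding genes with at least 10 FPKM in KO cells, 1664 (33.4%) were hosts, 3304 (66.4%) had no KO circle and 7 had circles shared with another gene only. Of the 3304, 14 had a WT circle. The genes without circles were shorter and had fewer exons: their medians were 7 exon blocks, meaning merged exons, and a span of 12.3 kb, against 15 blocks and 44.2 kb in expressed hosts. Their median level was 23.3 FPKM against 19.2 FPKM. Of the 3304, 120 had 1 block and 1101 had at least 10.

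The share of hosts rose from 0.373% of protein-coding genes under 0.1 FPKM to 39.3% at 5 to 10 FPKM, and then fell to 6.38% (3 of 47) at 500 FPKM or more. Among expressed genes it rose with exon blocks from 2.42% at 2 blocks to 81.1% in the highest class, and with span from 2.34% in the shortest class to 87.7% (71 of 81) in the longest. The fall at high FPKM remained among expressed genes with at least 10 blocks, from 57.7% in the lowest FPKM class to 42.9% in the class before the highest, where 1 of 4 was a host. With at least 10 blocks the share rose from 9.86% under 10 kb to 94.4% (68 of 72) at 200 kb or more. The classes differ in several measures at once, and their separate parts were not tested.

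**Figure D3:**
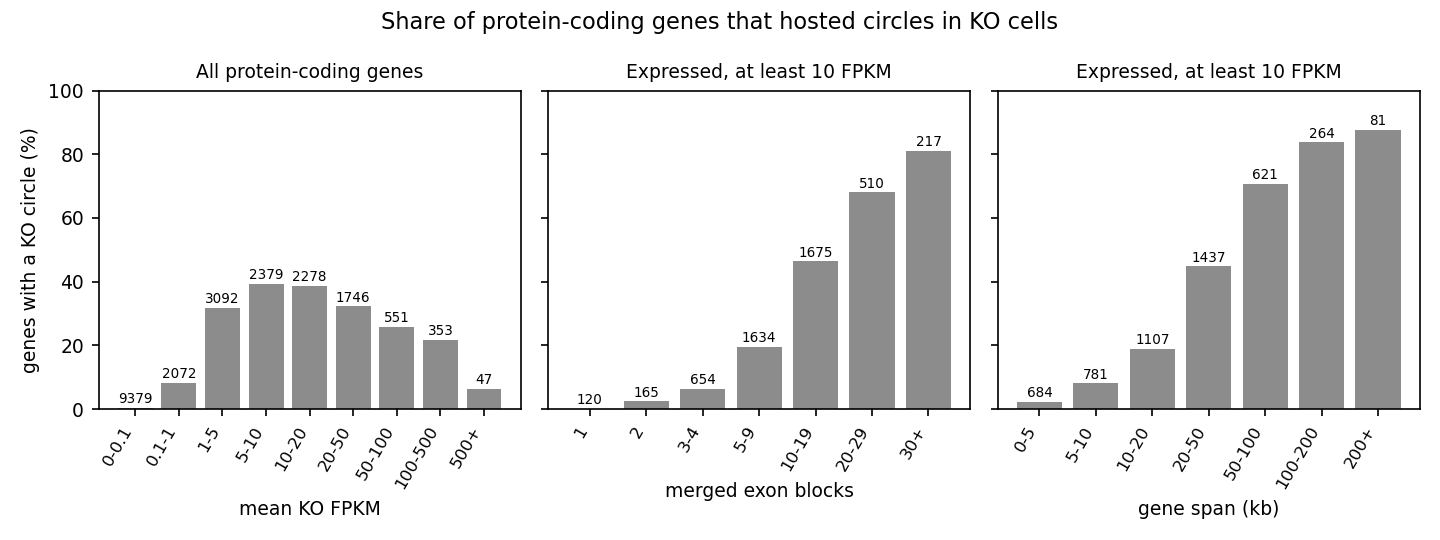
Percent of protein-coding genes with a KO circle (y axes) by FPKM over all genes (left), and by number of exon blocks (middle) and genomic span (right) over genes with at least 10 FPKM. The number above a bar is its number of genes. The share peaks at 39.3% at 5 to 10 FPKM and climbs to 81.1% with exon blocks and 87.7% with span.

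The most abundant mRNAs without a circle in KO cells were Eef1a1, the translation elongation factor that brings tRNA to the ribosome, at 3754, 4127 and 3823 FPKM, and Lgals1, galectin-1, at 3111 ± 237 FPKM (SD, n = 3). Rplp1, Rplp0, Rps3a1, Rpl41 and Rpl36 of the ribosome, Actb (beta-actin, 1341 ± 98.2 FPKM), the chaperone Hsp90ab1 (1286 ± 41.6) and the elongation factor Eef2 (1246 ± 40.8) followed. None of the 10 had a WT whole-cell circle, and Eef2 had 3 and 6 reads in KO cytoplasm.

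Among genes with at least 10 exon blocks, those with the highest FPKM and no circle were Eef2, Psap, Eef1g, Col1a1, Eif5a, Npm1, Col1a2, Pkm, Anxa1 and P4hb. Col1a1 and Col1a2, the chains of type I collagen, had 52 and 48 blocks, spans of 16.8 and 36.7 kb, and 405 ± 39.1 and 390 ± 22.1 FPKM. Col1a1 had no read in any KO fraction, and Col1a2 had 4 and 7 reads in cytoplasm. Eif5a, an elongation factor and known cargo of XPO4, had 402 ± 33.6 FPKM and no circle.

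Hosts of lowest output, chosen by their KO values, had 1 circle each, with KO reads near the listing limit. Rpl8, a ribosomal protein, had 2 and 1 reads for 1004 ± 107 FPKM, and Rpl4 had 3 and 3 reads for 791 ± 49.3 FPKM. Anxa5, Anxa2, Cnn2, Atp5a1, Nedd4, Ldha, Tmbim6 and Stip1 completed the 10, with 0.5 to 2.0 mean reads. Mean WT reads were above mean KO reads in all of the 10 except Rpl4, which had 0 and 1 in WT. A circle with under 2 reads in a KO library is listed only with at least 2 reads in both WT libraries. For hosts such as Rpl8, Anxa5 and Ldha this direction was thus set in advance by the choice and the listing rule. The widest gap was in Ldha, with 12 and 9 WT reads against 1 and 2 in KO. Nedd4, a ubiquitin ligase, had 0 and 1 whole-cell reads but 14 and 21 in KO cytoplasm, and Stip1, a co-chaperone, 1.0 mean read but 17 and 13 in cytoplasm, so their low whole-cell reads were not shared by that fraction.

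Introns beside KO circles were longer than those beside other exons. For circles of up to 5 exons in expressed hosts, the shorter of both flanking introns had a median of 2.64 kb (3259 circles), against 0.654 kb for 96082 other exon runs of the same transcripts and 0.290 kb for 81455 exon runs of expressed genes without circles. Within the circles it was 2.17 kb under 5 mean reads (2006 circles), 3.77 kb at 5 to under 20 reads (1155) and 8.61 kb at 20 or more (98). An inverted match of 15 bases was sought between the last 500 nt of the upstream and the first 500 nt of the downstream intron, or the whole intron where shorter. It was present beside 3.90% of circles, 0.815% of other runs and 0.608% of runs of genes without circles. Short introns were thus searched over less sequence, and the part of intron length in these shares was not tested. Within the circles the match did not follow reads, at 4.04%, 3.64% and 4.08% in the same classes. Runs of 1 gene overlap, so these are descriptions, and a match is not a shown pairing of introns.

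**Figure D4:**
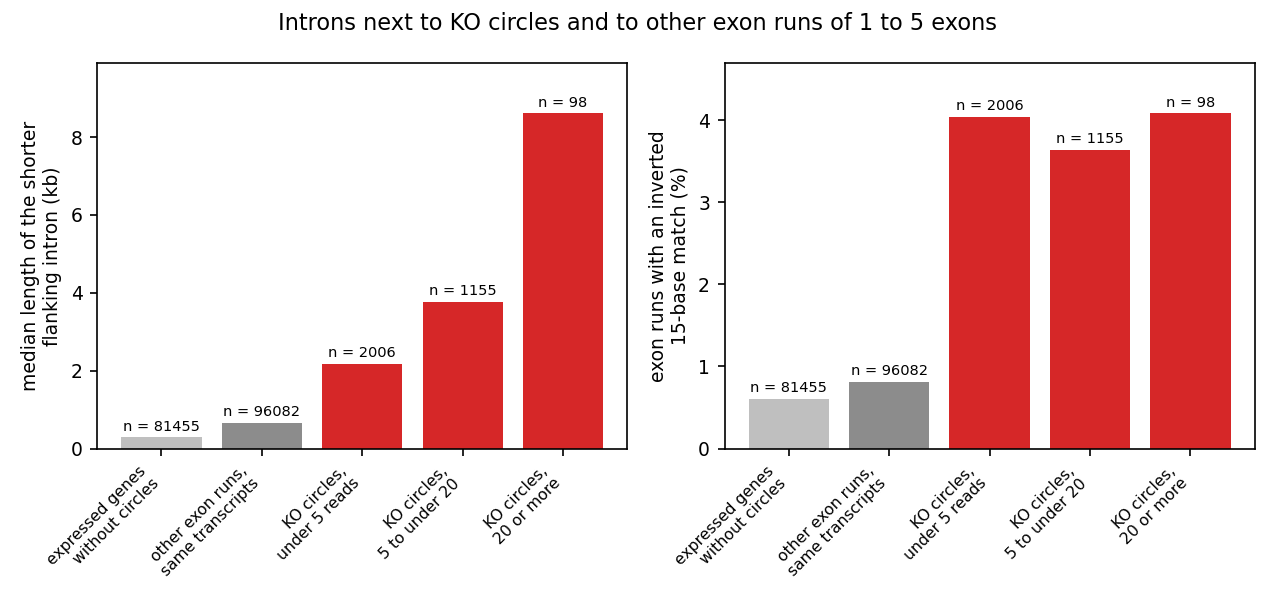
Median length of the shorter flanking intron in kb (left) and percent of exon runs with an inverted 15-base match in the introns (right) for expressed genes without circles, other runs of host transcripts, and KO circles by mean reads. The number above a bar is its number of exon runs. The left bars climb from 0.290 kb to 8.61 kb, and the right bars of all 3 circle classes lie between 3.64% and 4.08%.

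Gene lists placed the hosts by function. Of 24 hosts of well-studied circles, 18 were KO hosts, with a median of 21.8 mean reads and a median output of 4.25 beside 1.06 over all hosts. Of the 9 that were expressed, 6 were hosts (66.7%, beside 33.4% of all expressed protein-coding genes). Asxl1 (10.7 FPKM), Smarca5 (20.7 FPKM) and Foxo3 (10.4 FPKM) were expressed without a circle. Of 5 hosts whose circles the study imaged, 4 were KO hosts, namely Nfix, Hipk3 with 178 and 91 reads, Specc1 with 27 and 18 and Wwc1 with 1 and 1, and Adarb1 had no circle at 1.74 FPKM. That list was chosen by the study on these cells. The Hipk3 kinase circle is exon 2 alone, of 1099 nt, with 170 and 88 reads.

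Of 28 genes for factors of backsplicing and circle export, 15 were hosts, and 10 of the 21 expressed ones were (47.6%). Their median output was 0.643. The helicase Dhx9, which unwinds inverted repeats, had 34 and 25 reads, and the quaking gene Qk, whose protein promotes circles in other cells, 21 and 19. Xpo4 itself had 12 and 15 circle reads in KO and 10 and 9 in WT cells. Ran (265 ± 17.0 FPKM), the GTPase that drives nuclear export, and Hnrnpl (96.5 FPKM) had none.

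Of 77 ribosomal protein genes, all were above 1 FPKM and 3 of 73 expressed ones (4.11%) were hosts, Rpl10a with 5 and 5 reads, Rpl4 and Rpl8. Their medians were 336 FPKM, 4 exon blocks and 3.29 kb. Of 44 collagen genes, 5 were hosts, and 3 of 14 expressed ones (21.4%), led by Col5a1 with 31 and 25 reads at 39.3 FPKM. Of 67 replication-dependent histone genes, 62 had 1 exon block and none was a host or reached 10 FPKM. The 13 mitochondrial genes were listed at 0 FPKM in every library. In the nuclear factor I family, Nfib had 11 and 17 reads at 12.6 FPKM and Nfia 4 and 7 at 2.21 FPKM, while Nfic had no circle at 33.3 FPKM.

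The KO hosts were nearly the same genes as the WT hosts, since 3800 were shared, 99.3% of KO and 99.0% of WT hosts. Across these, rho between genotypes was 0.726 for circle reads, 0.969 for FPKM and 0.865 for output. Circles listed in both genotypes did not follow each other when all 10229 with 1 host were taken (rho 0.0375). Those with at least 10 mean KO reads did (rho 0.710 over 790). Over the 1683 hosts with 1 KO circle, rho of the reads was -0.115. Circles with up to 2 mean KO reads had a median of 4.5 in WT and those over 2 and up to 5 had 1.5. The listing rule asks for at least 2 reads in both libraries of 1 genotype, and its part in these medians and in the tests of weak hosts between genotypes was not tested. No source says that replicates were separate cultures, so p-values measure only the spread between these libraries.

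Circle reads differed between KO and WT cells in 315 of 3531 hosts tested (8.92%) by the quasi-likelihood test of edgeR after Benjamini-Hochberg adjustment, with 178 higher (5.04%) and 137 lower (3.88%) in KO. This count rested on the method, as DESeq2 called 3 hosts, all among the 315, and leaving out either KO circRNA library left 0, with 611 and 485 at an unadjusted p under 0.05 (1150 with all libraries). Hosts called under all 5 settings with every library (this fit, DESeq2, no TMM factors, no filter and a replicate block) were 3. Of these, 2 had been chosen by their KO level and are described above by values only, and the other was Rsrc1. Of 14688 genes, 48.7% differed in mRNA by the same test, and of 3787 KO hosts tested 2098 (55.4%), 991 of them higher in KO (26.2%). Output was tested as the interaction of assay and genotype, with an estimate of spread per host shared by circle and mRNA libraries. Its SE can therefore fall below that of the circle change within it, so output p-values can be too small and calls too many. By this test output differed in 716 of 3498 hosts (20.5%), 371 higher (10.6%) and 345 lower (9.86%), and 514 were called in all 5 settings. Leaving out 1 library lowered it to 280 (KO circRNA replicate 2), 258 (WT circRNA replicate 1) or 243 (WT circRNA replicate 2).

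Rsrc1, a splicing regulator with arginine and serine repeats, went the other way from Nfix and Pvt1. It had 5 and 4 circle reads in KO against 93 and 82 in WT cells, without overlap, while its mRNA was higher in KO, at 7.15, 7.51 and 7.63 against 4.59, 5.63 and 5.16 FPKM. Its circle reads fell by 4.18 ± 0.38 on the log2 scale (SE, n = 2 against 2, edgeR quasi-likelihood, Benjamini-Hochberg adjusted p = 0.0019). Its output fell by 4.75 ± 0.32 (adjusted p = 4.75e-07 by edgeR with the interaction term). The output SE, below that of the circle reads, rests on an estimate of spread shared with the mRNA libraries, so the output p can be too small. The circle call was kept in 2 of 4 fits that left out a library. In KO cytoplasm Rsrc1 had 78 and 64 circle reads, near the WT and not the KO whole-cell values.

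Other hosts with the smallest p for circle reads were Plekhm1, a lysosome adaptor, with 18 and 24 KO against 2 and 1 WT reads (log2 3.76 ± 0.49, edgeR quasi-likelihood with Benjamini-Hochberg adjusted p = 0.0203), and Etv6, a transcriptional repressor, with 18 and 15 against 1 and 2 (3.42 ± 0.48, adjusted p = 0.0305 by edgeR). Under DESeq2 their adjusted p was 0.19 and 0.501. Neither host had at least 2 reads in both WT libraries, so its circles were listed only through KO. The listing rule thus favours such a gap, and these p-values cannot be read as support for it. Osmr, the oncostatin M receptor, had 31 and 35 KO against 15 and 7 WT circle reads, and 11.7 ± 0.538 against 36.0 ± 0.383 FPKM (SD, n = 3). Its output was higher in KO by 3.27 ± 0.29 on the log2 scale (SE, edgeR quasi-likelihood, Benjamini-Hochberg adjusted p = 1.09e-05), with the limit given above for output p-values.

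The hosts with the smallest p for mRNA had at most 19 circle reads in any whole-cell library. Dock8, a guanine nucleotide exchange factor, had 4.06 ± 0.495 FPKM in KO and 0.284 ± 0.0118 in WT cells, with 15 and 19 against 14 and 12 circle reads. Adam12, a metalloprotease, went down from 3.87 ± 0.188 FPKM in WT to 0.446 ± 0.0537 in KO cells, with 9 and 11 KO and 10 and 13 WT reads. Itgbl1, an integrin-like matrix protein, had 5.12 ± 0.0306 against 0.104 ± 0.0376 FPKM, with 2 and 6 KO and 5 and 5 WT reads. Fas, the death receptor, had 4.19 ± 0.207 FPKM in KO and 26.7 ± 0.456 in WT cells, with 3 and 6 against 1 and 2 reads. The mRNA difference of these 4 was called by edgeR, and their circle reads overlapped between genotypes in Adam12 and Itgbl1 and did not in Dock8 and Fas, where those of Fas lay opposite to its mRNA. Cnn2, an actin-binding calponin chosen above by its KO level, is given by values only, with 190 ± 7.60 FPKM in KO and 56.3 ± 1.71 in WT cells and 0 and 1 against 3 and 4 circle reads.

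The changes in circle reads and in mRNA were not aligned across hosts. Of the 3498 hosts with all 3 tests, 1966 were called for mRNA and 313 for circle reads, 176 for both, and 73 of those in the same direction. In the 94 hosts whose mRNA was called and over 2-fold higher in KO, the median log2 change was 1.43 for mRNA and 0.10 for circle reads (quartiles -0.98 and 1.10), and 53.2% had more circle reads. In the 50 hosts over 2-fold lower, the medians were -1.43 and 0.42, and 62.0% had more circle reads. In the other 3354 hosts the medians were -0.03 and -0.02, and 48.9% had more circle reads. Of 20 hosts with mRNA over 8-fold higher in KO, a bound set after the values were seen, all had circle reads in WT cells, as did 99.3% of all KO hosts. Of the 18 tested for circle reads by edgeR 0 were called, beside 8.92% of all hosts, which is too few hosts to tell the shares apart. The circle changes were spread more widely, with an interquartile range of 1.40 against 0.442 for mRNA on the log2 scale, and come from 2 libraries a genotype with few reads for most hosts.

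**Figure D5:**
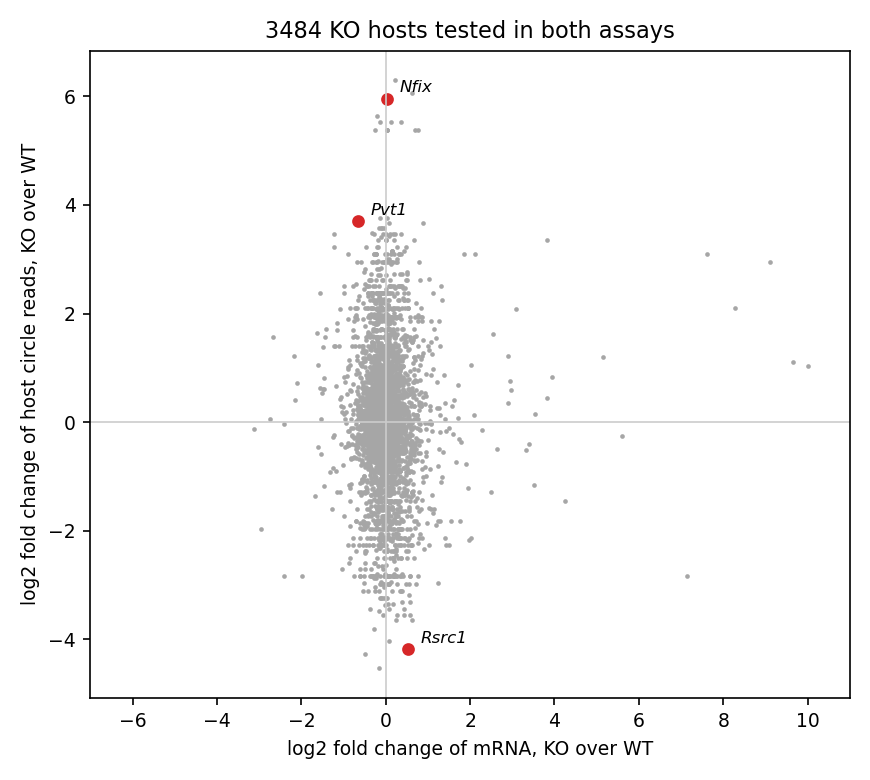
Log2 fold change of mRNA (x axis) and of circle reads (y axis), KO over WT, for KO hosts tested for both. Each grey point is a host, and Nfix, Pvt1 and Rsrc1 are marked in red. Points spread more along the y axis (interquartile range 1.40) than along the x axis (0.442), and Nfix, at 0.04 on the x axis, has the highest marked value on the y axis.

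Among the list members not chosen by KO level, circle reads were called for Wwc1 (1 and 1 KO, 8 and 8 WT reads, edgeR quasi-likelihood with Benjamini-Hochberg adjusted p = 0.036), Col4a5 (1 and 3 against 13 and 12, log2 -2.51 ± 0.51, adjusted p = 0.036 by edgeR), Mbnl1, Shprh and Sparc. Wwc1, Col4a5 and Sparc did not have at least 2 reads in both KO libraries, so their circles were listed only through WT. The listing rule thus favours such a gap, and the calls of Wwc1, Col4a5 and Sparc cannot be read as support for it. Sparc, a matrix protein and no KO host, had 0 and 0 KO and 5 and 7 WT whole-cell reads, but 12 and 9 in KO cytoplasm, and Shprh, a ubiquitin ligase, had 15 and 17 against 8 and 4. Mbnl1, a splicing factor that promotes a circle of its own gene, had a log2 change in circle reads of -1.29 ± 0.31 and in output of -1.78 ± 0.29 (edgeR adjusted p = 0.0417 and 0.00196). Circle reads were called for 2 of 4 imaged hosts tested, 2 of 17 well-studied hosts, 1 of 12 backsplicing and export factors, 1 of 5 collagens and 1 of 3 fibroblast markers. Beside 8.92% of all hosts, these lists are too small to tell the shares apart. None of the members named here was called by DESeq2 or without the filter on low counts. Beside 20.5% of all hosts, output was called for 3 of 17 well-studied hosts, a share near it, with a median log2 change of 0.15 over the list beside 0.02 over all hosts tested. It was called for 1 of 12 backsplicing and export factors, with a median of -0.19, and for 2 of 5 collagens, with a median of -0.41, counts too small to set against that share. Of 77 ribosomal protein genes, 52 were called for mRNA, 3 of them higher, beside 48.7% called and 25.2% called higher over all genes, with a median log2 change of -0.31 beside -0.00105 over all genes tested.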

How the data were processed

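Circle tables were used as deposited. Per the paper, the authors called circles with find_circ after RNase R digestion, and per the labels the build is mm10. The methods name a scaling to TPM, but the deposited circle values are whole counts of junction reads with unequal library totals, and were used as counts. The mRNA tables hold fragment counts per gene that the authors made with HISAT2 and featureCounts (version 2.0.0, per the file headers, exons by gene, without strand), so antisense neighbours cannot be told apart. Columns were taken by sample, and the members and gene lists were chosen with earlier results of these data known.

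Host genes came from exon edges in the mRNA tables, and FPKM was computed from their counts and lengths. Symbols of 55141 of the gene IDs were found. Counts were tested with edgeR 4.0.16 (R 4.3.3, glmQLFit and glmQLFTest, TMM, Benjamini-Hochberg adjustment, threshold 0.05), for hosts with at least 10 reads over 4 libraries and genes kept by filterByExpr. DESeq2 1.42.0 was an alternative. On simulated counts the circle test found 5% of hosts changed 2-fold and 96% of those changed 4-fold, the mRNA test 98.5% and 100% of genes, and the output test 10% and 97% of hosts. For the circle and output tests, changes were set only in hosts with a mean of at least 10 circle reads. The simulated spread between libraries was set by 1 value for each assay, whereas real spread differed with level. These shares cannot be taken to hold for weaker hosts, and the median of KO hosts was 6.5 reads. Over all hosts or genes with at least 10 summed reads, same-numbered libraries did not deviate together (correlations -0.048 to 0.023), so the numbers were not taken as pairs. Abundant circles differ from this. With at least 50 mean reads, replicate 1 was the higher for 55 of 60 circles in KO and 66 of 80 in WT. Named genes were the 12 hosts of highest output with at least 20 reads in each KO library, the 10 with most reads, the 10 of lowest output, the 10 highest-FPKM genes without circles (also among those with at least 10 exon blocks), up to 5 members of a list and the 5 smallest p of each test. Genes chosen by KO level stayed in the fits over all genes, but their own p-values are not given. Reads carry no stated molecular identifiers, so their counts are not independent molecules. Flanks and junctions were read with pysam 0.24.0, tables with pandas 2.3.3 and figures with matplotlib 3.10.9. Alternatives were other normalizations, filters, levels, listing in both libraries, and leaving out each library.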

Additional observations from a re-analysis of the deposited data

How the results depend on the processing

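Of 101 alternative values, 68 stayed with the reported one, among them all 10 for mRNA calls and all 7 for the number of hosts. The rank correlation of circle reads with FPKM stayed near 0, at -0.0159 with circles required in both KO libraries, 0.0156 with mRNA of the libraries labelled WT, -0.0479 in hosts of at least 1 FPKM, and -0.0158 to 0.0069 when 1 library was left out. The median log2 output of 0.09 became 0.17 with circles in both libraries, -0.10 with a pseudocount of 1 FPKM, -0.43 with the top circle only, -0.068 in hosts of at least 1 FPKM and -1.60 in TPM, of which 1 FPKM holds 3.11 to 3.32. The 18 hosts with many reads for little mRNA became 49 at 10 reads, 57 under 2 FPKM and 2 in TPM, where the same number is a lower bar. The 3304 expressed genes without circles became 729 at 50 FPKM and 5546 in TPM. The host share of 33.4% became 31.3% with circles in both libraries, 34.5% with WT mRNA, 35.3% at 5 FPKM, 23.3% at 50 FPKM, 35.8% in TPM, and 32.4% to 34.0% when 1 library was left out.

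The 315 circle calls became 3 with DESeq2, 3 without a filter, 661 without TMM factors, and 0 to 238 when 1 library was left out (0 without either KO library, 238 and 162 without WT replicate 1 and 2). With the replicate block they became 696, which held all 315, although the numbers were not taken as pairs. The block gave 804 output calls beside 716, and 7161 mRNA calls beside 7148. Output calls ran from 243 to 819 when 1 library was left out, lowest without a circRNA library (280 without KO replicate 2, 258 and 243 without WT replicate 1 and 2). With at least 80 circle reads, an alternative added after seeing the data, 6 of 708 hosts were called for circle reads and 106 of 707 for output. Leaving out hosts with shared exons, also added then, moved none of the 3 values it was tried on. The causes of these shifts were not tested. Most hosts had few circle reads (median 6.5), and 1150 hosts had an unadjusted p under 0.05 for circle reads.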

Other observations

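Hosts with mRNA in KO cells and none in the WT mRNA libraries gave circles in both genotypes, as did 99.3% of all KO hosts. Ppargc1a, a coactivator of mitochondrial biogenesis, had 283, 277 and 357 fragments in the KO mRNA libraries and 0 in all WT ones, with 4 and 8 KO and 7 and 4 WT circle reads. Mboat1, a lysophospholipid acyltransferase, had 110, 98 and 70 fragments and 0 in WT, with 9 and 12 KO and 5 and 5 WT circle reads. Kcnip3, a calcium-binding partner of potassium channels, had 18, 21 and 10 fragments and 0 in WT, with 1 and 0 KO and 5 and 4 WT circle reads. Sobp, Trhde and Hecw1 had 1 or fewer circle reads in each WT library and 3 to 6 in each KO library. These hosts were picked out after their values were seen, and whether the circRNA and mRNA libraries came from the same cultures was not tested.

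Cytoplasmic libraries of KO cells did not always follow the whole-cell ones. Of the 3828 KO hosts, 2881 had circle reads in KO cytoplasm and 517 in KO nuclei, and rho between whole-cell and cytoplasmic reads was 0.677. Uty, with 19 and 24 whole-cell reads, had 0 and 0 in KO cytoplasm. Tsga10, a gene known from testis, had 21.5 mean whole-cell reads and 2 and 2 in cytoplasm, and Adgrl3 34.5 mean whole-cell reads and 1 and 3 in cytoplasm. Rsrc1 went the other way, with 5 and 4 whole-cell and 78 and 64 cytoplasmic reads.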
